A study of Mus musculus with 6 samples.

Results

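The miR-99 and miR-100 family is represented by 5 mature miRNAs, mmu-miR-99a-5p, mmu-miR-99a-3p, mmu-miR-99b-5p, mmu-miR-99b-3p and mmu-miR-100-5p, out of 1034 distinct mature miRNAs in the deposited table. They were taken by name (the mouse prefix is left off from here on). All 5 passed the filter of a mean of at least 1 TPM, which left 670 miRNAs for testing. TPM here is reads divided by the end minus the start position of the mature miRNA, scaled to one total in every library. The samples are nephron progenitor cells of CD1 mice, taken at the embryonic stage E14.5 or on the day of birth (P0), with no genetic change or treatment in either group. Each of the 3 samples per stage is a pool of the kidneys of 1 litter, briefly digested to release cortical cells, from which progenitors were pulled out on beads with an antibody to the integrin Itga8. Beads enrich rather than purify, and a table of miRNAs holds no progenitor mRNA such as Six2, so the label could not be checked by its defining genes. In pools of cells, fewer cells of one type and less RNA per cell cannot be told apart.

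A miRNA hairpin is cut into 2 arms, named 5p and 3p, of which one is usually loaded into Argonaute as the guide and the other is mostly degraded. A guide finds its messenger RNAs mainly through its seed, and for the miR-99 and miR-100 guides reported targets include the growth kinase Mtor. In mammals these miRNAs sit in 3 related clusters, each beside a let-7 gene and a miR-125 gene. let-7 and miR-125 are heterochronic miRNAs, which repress the stem-cell factor Lin28 among other targets and are known for setting developmental timing.

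The sequences below, from RefSeq (build GRCm38.p6), show why the 3 guides form 1 family and how little separates them. Capitals mark the seed, bases 2 to 8 counted from the 5′ end.
miR-99a-5p: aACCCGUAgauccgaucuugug
miR-100-5p: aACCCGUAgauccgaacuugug
miR-99b-5p: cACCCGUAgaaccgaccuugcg
miR-99a-3p: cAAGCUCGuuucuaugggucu
miR-99b-3p: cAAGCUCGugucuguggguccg

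The guides share the seed ACCCGUA, and among the 885 miRNAs of the table with a RefSeq sequence no other miRNA carries it. miR-99a-5p and miR-100-5p differ by 1 base, U16A (positions counted from the 5′ end of miR-99a-5p). How reads were divided between them is not stated and may depend on the authors' counting. miR-99b-5p differs from miR-99a-5p by 4 bases, A1C, U11A, U16C and U21C, all outside the seed. The 3p arms share a different seed, AAGCUCG, which only miR-99a-3p and miR-99b-3p carry among those 885. Over their first 21 bases they differ by 3, U10G, A14G and U21C.

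The Mir99a hairpin (65 bases, chr16:77598936-77599000, plus strand) shows how the arms lie in one precursor, with the 5p and then the 3p arm in capitals.
Mir99a: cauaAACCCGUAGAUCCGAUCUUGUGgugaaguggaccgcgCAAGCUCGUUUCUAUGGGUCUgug

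The submitters' processing notes name build mm10, and the table's positions of the 5 members equal those of RefSeq on GRCm38.p6. All lie on the plus strand. In GENCODE M21, miR-99a-5p (chr16:77598940-77598961) and miR-99a-3p (chr16:77598977-77598997) lie in an intron of the non-coding host gene Mir99ahg, opposite an intron of the protein-coding gene Gm11146, 732 bases upstream of let-7c-5p and 47.3 kb upstream of miR-125b-5p, measured between starts. miR-99b-5p (chr17:17830194-17830215) and miR-99b-3p (chr17:17830232-17830253) lie in an intron of the protein-coding gene Spaca6, with let-7e-5p 172 bases and miR-125a-5p 623 bases downstream. miR-100-5p (chr9:41531437-41531458) lies in introns of the non-coding genes 3110039I08Rik and Gm49317 and opposite an exon of the antisense lincRNA Gm48742. let-7a-5p is 5295 bases and a second copy of miR-125b-5p 50.5 kb downstream of it.

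The 6 libraries held 2649506 to 34934526 recovered reads, and the smallest 2 were both from E14.5. P0 replicate 1 stood apart: on the first principal component (74.8% of the variance of log2(TPM + 1)) it scored 1.14, between the E14.5 libraries at −26.2 to −16.2 and the other P0 libraries at 33.2 and 33.5. Results that turn on it are given with and without it. Over all 670 tested miRNAs the log2 fold change (P0 over E14.5) had a median of −1.20 in TPM, or −0.17 with median-of-ratios scaling, the kind of scaling used by DESeq2, which the processing notes name. Each change is therefore given on both scales. Values of single pools are listed in the order of replicates 1, 2 and 3.

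miR-99b-5p was the most abundant member in every library. Its levels were 2190, 4680 and 3157 TPM in the E14.5 pools against 5236, 3991 and 5154 TPM in the P0 pools. The stages overlapped in TPM, because E14.5 replicate 2 was above P0 replicate 2. By abundance it ranked between 36 and 62 among the 1034 miRNAs at E14.5 and between 25 and 34 at P0. Means were 3342 ± 1256 TPM before birth and 4794 ± 697 TPM on the day of birth (SD, n = 3). The difference of 0.58 on the log2 scale (SE 0.47) missed the threshold of 0.05 (limma adjusted p = 0.329). It was 0.31 without E14.5 replicate 1 and 0.86 without E14.5 replicate 2.

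On the median-of-ratios scale, miR-99b-5p rose from 1448, 3185 and 1841 scaled TPM in the E14.5 pools to 5970, 7558 and 9090 in the P0 pools. All P0 values then lay above all E14.5 values. This 3.64-fold rise, 1.86 on the log2 scale with SE 0.44, was called (limma adjusted p = 0.0332). It passed in the fit without P0 replicate 1 (2.02, limma adjusted p = 0.00201), where 48.7% of the 670 tested miRNAs were called (22.2% higher and 26.4% lower), against 10.9% with all 6 libraries. It did not pass without E14.5 replicate 1, 2 or 3 (limma adjusted p of 0.184, 0.0529 and 0.176) or without P0 replicate 2 or 3 (0.139 and 0.111). In those 5 fits only 0 to 7 of all 670 miRNAs were called with limma, and 136 to 197 had an unadjusted p below 0.05. The authors' deposited table listed miR-99b-5p at 1.65 on the log2 scale, with SE 0.62 and adjusted p 0.0521.

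miR-99a-5p, the guide of the chromosome 16 cluster, went the other way in TPM. It had 497, 1157 and 814 TPM in the E14.5 pools against 450, 179 and 233 TPM in the P0 pools. The stages did not overlap, although P0 replicate 1 lay close to E14.5 replicate 1. Means of 823 ± 330 TPM and 287 ± 144 TPM (SD, n = 3) gave −1.54 on the log2 scale with SE 0.57, just short of a call (limma adjusted p = 0.0517). Leaving out P0 replicate 1 gave a call, at −1.92 (limma adjusted p = 0.00114). In that fit 61.2% of the 670 were called (7.76% higher and 53.4% lower), and the median of all moved to −1.42. Leaving out any of the other 5 pools gave none, in fits that called 66 to 157 of all 670, against 229 with all 6 libraries.

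The median of all tested miRNAs in TPM was −1.20. After median-of-ratios scaling miR-99a-5p had 329, 788 and 475 scaled TPM in the E14.5 pools against 513, 338 and 411 in the P0 pools, so the stages overlapped throughout. It stood at −0.26 on the log2 scale (SE 0.46, limma adjusted p = 0.721). Without E14.5 replicate 2 it was 0.070, on the other side of 0. The authors' deposited table listed it at −0.58, with SE 0.60 and adjusted p 0.531.

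miR-100-5p, the guide that differs from miR-99a-5p by 1 base, was the scarcest of the guides. It had 90.5, 259 and 181 TPM in the E14.5 pools against 127, 64.4 and 92.3 TPM in the P0 pools, from 239 to 6099 reads per library. The stages overlapped, since E14.5 replicate 1 lay below 2 of the P0 libraries. The log2 fold change in TPM was −0.83 (SE 0.59, limma adjusted p = 0.278) but 0.45 with median-of-ratios scaling (SE 0.51, limma adjusted p = 0.559), so the sign depended on the scaling. Without E14.5 replicate 1 these became −1.24 and 0.057, and without E14.5 replicate 2 −0.49 and 0.83. Without P0 replicate 2 the TPM value was −0.58. The authors' deposited table listed it at 0.16, with SE 0.66. The other arm, miR-100-3p, is not among the 5 members and was counted 1, 60 and 45 times in the E14.5 pools against 40, 0 and 0 times in the P0 pools.

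The 3p arms were scarcer than the guides cut from the same hairpins. miR-99b-3p had 171, 362 and 219 TPM in the E14.5 pools against 341, 270 and 302 TPM in the P0 pools, with overlap between the stages. Its log2 fold change was 0.34 in TPM (SE 0.53, limma adjusted p = 0.606), between 0.10 without E14.5 replicate 1 and 0.64 without E14.5 replicate 2. With median-of-ratios factors applied it had 113, 246 and 128 scaled TPM at E14.5 and 388, 511 and 533 at P0, with no overlap, and it rose by 1.63 on the log2 scale (SE 0.46, limma adjusted p = 0.0494). Like miR-99b-5p, it kept that call without P0 replicate 1 (limma adjusted p = 0.00596), in the fit that called 48.7% of all. It lost it when E14.5 replicate 1, 2 or 3 was left out (0.210, 0.0579 and 0.224) or P0 replicate 2 or 3 (0.170 and 0.148). In limma-voom on the recovered reads it was also not called (limma adjusted p = 0.0823), nor with the replicate number as a block after scaling (0.0517). The authors' deposited table listed miR-99b-3p at 1.33, with SE 0.62 and adjusted p 0.119.

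miR-99a-3p was the least abundant member, with 11.9, 21.5 and 9.46 TPM in the E14.5 pools against 13.6, 17.2 and 8.11 TPM in the P0 pools. It rested on only 30 and 46 reads in E14.5 replicates 1 and 3. The stages overlapped, and the log2 fold change was −0.11 in TPM (SE 0.60, limma adjusted p = 0.902) but 1.08 with median-of-ratios scaling (SE 0.60, limma adjusted p = 0.224), so the sign differed between the scales. In TPM it also turned when E14.5 replicate 2 (0.21) or P0 replicate 3 (0.17) was left out. After scaling it ranged from 0.72 without P0 replicate 2 to 1.42 without E14.5 replicate 2. The authors' deposited table listed it at 0.56, with SE 0.76 and adjusted p 0.636.

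Set against the background, 0 of the 5 members were called with limma in TPM, where 34.2% of the 670 tested miRNAs were called (1.34% higher and 32.8% lower at P0). At an unadjusted level, 328 of the 670 had a p below 0.05. After median-of-ratios scaling 2 of 5 were called higher, with 10.9% of all tested miRNAs called (5.67% higher and 5.22% lower). The members' median change (log2) was −0.11 in TPM, or 1.08 with scaling, beside −1.20 and −0.17 over all tested miRNAs. With limma-voom on the recovered reads, miR-99b-5p was the 1 member called (limma adjusted p = 0.0474), beside 4.18% of all 670 (2.54% higher and 1.64% lower). Stage values did not overlap for 1 of 5 members in TPM (miR-99a-5p, lower), as for 49.6% of all tested miRNAs (3.13% higher, 46.4% lower). After scaling they did not overlap for 2 of 5, both higher, as for 35.4% of all (15.8% higher, 19.6% lower).

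**Figure D1:**
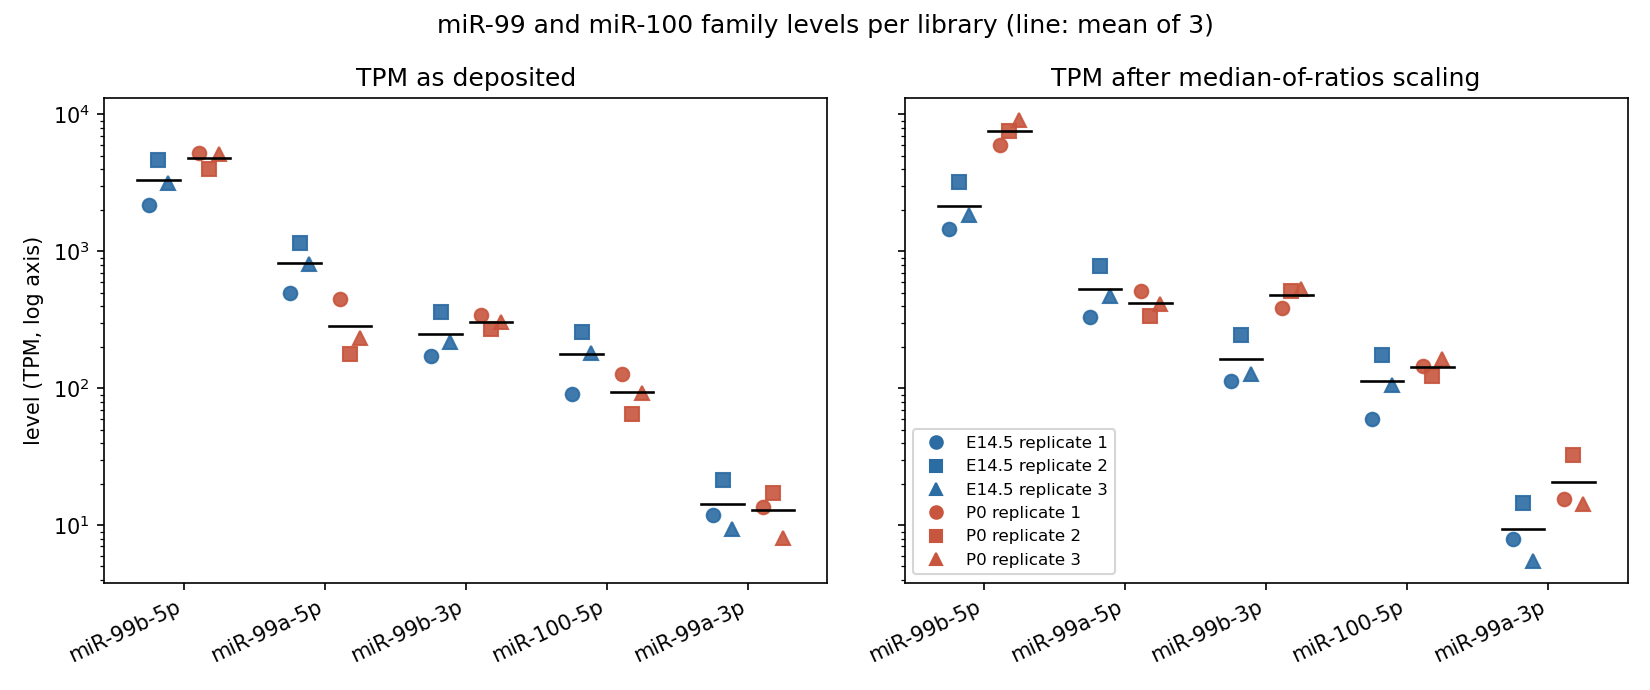
Level of each member in each library (vertical log axis, TPM), as deposited on the left and with median-of-ratios scaling on the right. Points are single libraries and black lines are means of 3. miR-99b-5p and miR-99b-3p separate the stages only on the right, miR-99a-5p only on the left.

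The order of members below is that of their TPM. Whether different sequences are captured equally well was not tested, here or in the ratios between miRNAs below. At E14.5 the order was miR-99b-5p, miR-99a-5p, miR-99b-3p, miR-100-5p and miR-99a-3p in each of the 3 libraries. miR-99b-5p and miR-99a-5p were separate at both stages, and so were miR-100-5p and miR-99a-3p. miR-99a-5p stood 2.91 to 3.72 times above miR-99b-3p at E14.5. At P0 those neighbours were at 0.662 to 1.32 times, with miR-99a-5p the higher in 1 of 3 libraries, so their order was not settled there. miR-99b-3p and miR-100-5p overlapped in their ranges at E14.5 and were separate at P0.

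The share of each gene in the guides that carry the common seed differed between the stages. miR-99b-5p made up 78.8%, 76.8% and 76.0% of the reads of the 3 guides in the E14.5 pools against 90.1%, 94.3% and 94.1% in the P0 pools. The 95% Wilson intervals, which cover counting error only, spanned 77.9 to 79.8% in the shallowest library, E14.5 replicate 1, and 93.9 to 94.2% in P0 replicate 3. Stage means were 77.2 ± 1.46% and 92.8 ± 2.36% (SD, n = 3), and the stages did not overlap. miR-99a-5p supplied 17.9%, 19.0% and 19.6% at E14.5, and 7.75%, 4.22% and 4.26% at P0. The share of miR-100-5p was 3.26 to 4.37% at E14.5 and 1.52 to 2.18% at P0. These shares do not depend on how libraries are scaled, and P0 replicate 1 lay on the P0 side with the smallest shift.

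**Figure D2:**
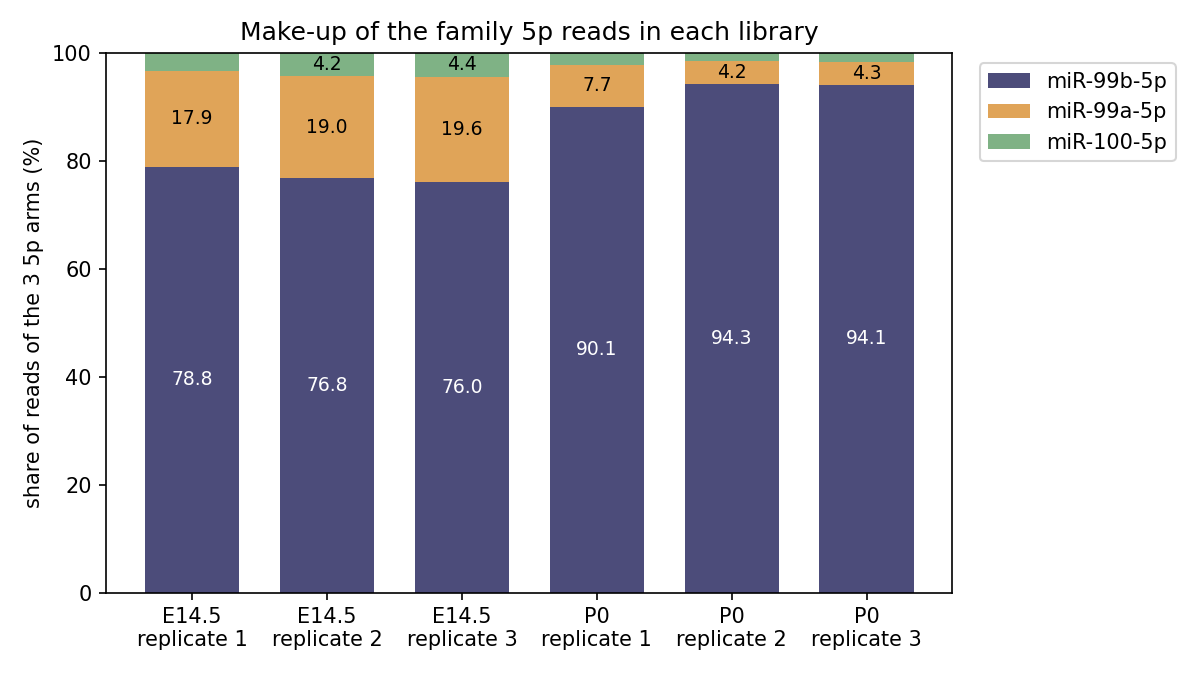
Share (%) of miR-99b-5p, miR-99a-5p and miR-100-5p in the reads of the 3 guides, 1 stacked bar per library adding up to 100%. miR-99b-5p takes 76.0 to 78.8% in the E14.5 libraries and 90.1 to 94.3% in the P0 libraries.

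The same contrast appears as ratios within a library, computed as log2 of (TPM + 1) and tested by an exact two-sided permutation test. With 3 libraries against 3 its smallest possible p is 0.1, so no ratio could pass 0.05, and the p-values adjusted over all 17 ratios were at least 0.142. miR-99b-5p exceeded miR-99a-5p 4.40-, 4.04- and 3.87-fold in the E14.5 pools and 11.6-, 22.2- and 22.0-fold in the P0 pools. The log2 ratio was 2.12 higher at P0 (exact p = 0.1), and between 1.96 and 2.43 higher when 1 library was left out. Its log2 ratio to miR-100-5p was 1.40 higher at P0 (exact p = 0.1). miR-99a-5p and miR-100-5p, which share all but 1 base, came closer: the log2 ratio of miR-99a-5p to miR-100-5p averaged 2.25 ± 0.17 before birth and 1.54 ± 0.26 on the day of birth (SD, n = 3; exact p = 0.1). The 2 stages did not overlap in any of these 3 ratios, as for 33.4% of all pairs of tested miRNAs.

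Summed over the guides, the family had 2777, 6096 and 4152 TPM in the E14.5 pools against 5813, 4234 and 5480 TPM in the P0 pools. The stages overlapped, and the means of 4342 ± 1668 and 5175 ± 832 TPM (SD, n = 3) did not differ beyond that spread (exact permutation p = 0.6). The overlap rested on E14.5 replicate 2, the highest of all. The difference of 834 TPM was 1711 without it, 51.4 without E14.5 replicate 1, 515 without P0 replicate 1 and 1305 without P0 replicate 2. After median-of-ratios scaling the P0 mean was 2.89 times the E14.5 mean with no overlap (exact permutation p = 0.1, the smallest possible). The guides took 0.277 to 0.606% of all recovered reads at E14.5 and 0.423 to 0.579% at P0.

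For Mir99b the 5p arm took 92.8%, 92.8% and 93.5% of the reads of both arms before birth against 93.9%, 93.7% and 94.5% on the day of birth, a narrow range in which the log2 ratio of 5p to 3p was 0.23 higher at P0 (exact permutation p = 0.1). For Mir99a the 5p arm took 97.8%, 98.3% and 98.9% at E14.5 and 97.2%, 91.6% and 96.8% at P0. Its log2 ratio of 5p to 3p differed by −1.43 (exact permutation p = 0.1), between −1.75 and −0.93 when 1 library was left out. P0 replicate 2 had the lowest 5p share. The 3p arm of Mir99a rests on far fewer reads than the 5p arm.

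Each member was then set against its cluster partners, the let-7 and miR-125 miRNAs of the same locus. Across the 11 partner miRNAs, 2 were called higher with limma in TPM, 5 with median-of-ratios scaling, and none lower, beside 1.34% of all tested miRNAs called higher and 32.8% lower in TPM, and 5.67% higher and 5.22% lower with scaling. All 5 calls after scaling were 5p arms: let-7e-5p, miR-125a-5p, let-7c-5p, miR-125b-5p and let-7a-5p, with log2 fold changes of 1.84, 2.61, 2.49, 1.92 and 1.56. Only miR-125a-5p and let-7c-5p were also called in TPM, at 1.32 and 1.20 (limma adjusted p of 0.0355 and 0.0453). With no filter on low values neither was called (limma adjusted p of 0.0595 and 0.0818), and with a pseudocount of 0.1 let-7c-5p was not (0.0524). let-7a-5p was not called with limma-voom (0.0513). In the authors' deposited test let-7e-5p and let-7a-5p were above 0.05 (adjusted p 0.0537 and 0.0900). There miR-125a-5p, let-7c-5p and miR-125b-5p were below it (0.00267, 0.000559 and 0.0304). Leaving out E14.5 replicate 1 or 3, or P0 replicate 2 or 3, left no partner called on either scale. In that order those fits called 111, 66, 114 and 136 of all 670 in TPM, of which 1, 1, 2 and 2 were higher. After scaling they called 0, 0, 0 and 2 of all. Leaving out E14.5 replicate 2 left miR-125a-5p called on both scales, beside 157 and 7 of all.

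The 6 partner 3p arms had a median of −0.97 in TPM and 0.08 after scaling, and none of them was called with all 6 libraries. Without P0 replicate 1, 5 partners were called in TPM, 2 higher (miR-125a-5p and let-7c-5p) and 3 lower, all 3p arms, beside 61.2% of all tested miRNAs. The 3 were let-7e-3p at −2.01, let-7c-1-3p at −1.92 and miR-125b-2-3p at −0.86 (limma adjusted p of 0.00169, 0.00525 and 0.0454). With scaling, those 5 libraries gave 7 calls, all higher, beside 48.7% of all. These were the 5p arms together with miR-125a-3p at 1.42 and miR-125b-1-3p at 1.33 (limma adjusted p of 0.00797 and 0.00566).

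**Figure D3:**
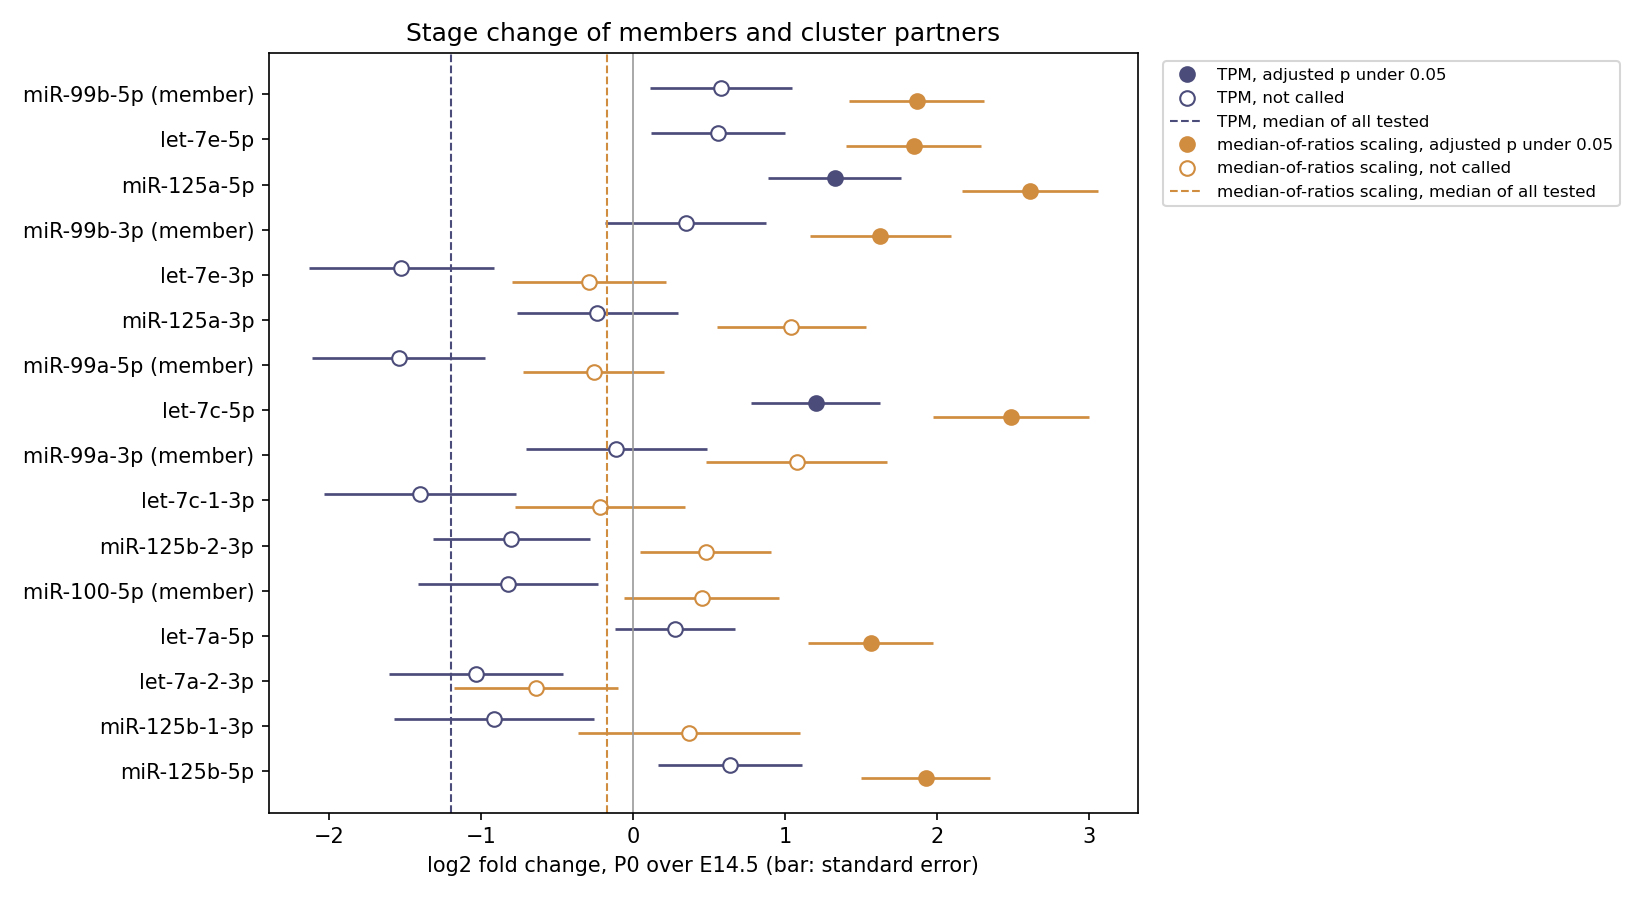
Log2 fold change (P0 over E14.5, horizontal axis) with its standard error for members and cluster partners, in TPM or with median-of-ratios scaling. Filled points have a limma adjusted p under 0.05, and dashed lines mark the medians of all tested miRNAs (−1.20 and −0.17). miR-99b-5p lies beside let-7e-5p, while miR-99a-5p lies apart from let-7c-5p.

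At the Mir99b locus the ratio of the guide to let-7e-5p was close to level. let-7e-5p was 2.44, 2.32 and 2.62 times as abundant as miR-99b-5p in the E14.5 pools against 2.29, 3.02 and 2.06 times in the P0 pools. The log2 ratio of miR-99b-5p to let-7e-5p averaged −1.30 ± 0.09 before birth and −1.28 ± 0.29 on the day of birth (SD, n = 3), a difference of 0.02 (exact permutation p = 0.9) that ranged from −0.10 to 0.18 when 1 library was left out. miR-125a-5p, the third guide of the cluster, was 2.39, 2.17 and 2.25 times as abundant as miR-99b-5p at E14.5 and 3.82, 5.19 and 2.79 times at P0. That log2 ratio differed by −0.75 at P0 (exact permutation p = 0.1) without overlap. The smallest such P0 excess of miR-125a-5p was that of replicate 3.

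The 3p arms of this locus gave another order. miR-99b-3p exceeded let-7e-3p 3.76-, 7.43- and 3.62-fold at E14.5 and 9.74-, 21.6- and 23.6-fold at P0, a log2 ratio 1.87 higher at P0 (exact permutation p = 0.1). The stages did not overlap. let-7e-3p had 44.7, 47.9 and 59.7 TPM at E14.5 and 34.1, 11.6 and 11.9 at P0, so P0 replicate 1 was the nearest to E14.5. Against miR-125a-3p, miR-99b-3p overlapped between the stages, with a log2 ratio 0.58 higher at P0 (exact permutation p = 0.2), or 0.35 higher without P0 replicate 1.

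At the Mir99a locus the guide and its partners parted. let-7c-5p was 29.9, 13.7 and 24.3 times as abundant as miR-99a-5p in the E14.5 pools against 56.0, 302 and 177 times in the P0 pools. The log2 ratio of miR-99a-5p to let-7c-5p went from −4.43 ± 0.58 before birth to −7.17 ± 1.24 on the day of birth (SD, n = 3). This was the largest of the 17 differences, at −2.74 (exact permutation p = 0.1), and it ranged from −3.42 to −2.21 when 1 library was left out. P0 replicate 1 lay closest to the E14.5 libraries.

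Against miR-125b-5p the P0 libraries were closer together. Its mature sequence has 1 copy at this locus and 1 at the Mir100 locus, with nearly equal rows (24954 and 25215 reads in E14.5 replicate 1), so the rows do not tell the loci apart. The chromosome 9 row, the larger, is used here. miR-125b-5p was 19.2, 13.9 and 17.1 times as abundant as miR-99a-5p at E14.5 and 79.8, 84.7 and 62.9 times in the P0 pools. The log2 ratio differed by −2.18 (exact permutation p = 0.1), between −2.31 and −2.06 when 1 library was left out, and here P0 replicate 1 was among the others of its stage. With the chromosome 16 row the difference was also −2.18. let-7c-5p has 2 rows as well, and part of its reads may come from the other copy. The rows of let-7c-5p held 16856 ± 2579 TPM on chromosome 16 and 2974 ± 922 on chromosome 15 at E14.5 and 40296 ± 14505 and 14945 ± 9305 at P0 (SD, n = 3). With copies summed, the difference of miR-99a-5p to let-7c-5p was −2.93.

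The 3p arms, which have 1 row each in the table, did not show that direction. miR-99a-3p was 0.614, 0.656 and 0.407 times as abundant as let-7c-1-3p at E14.5 and 0.715, 2.99 and 1.13 times at P0. The log2 ratio was thus higher at P0, by 1.29 (exact permutation p = 0.1; 0.71 without P0 replicate 2 and 1.75 without P0 replicate 1), the opposite sign to the 5p arms of the same 2 hairpins. Its ratio to miR-125b-2-3p overlapped between the stages (0.69 higher at P0, exact permutation p = 0.2; 0.35 without P0 replicate 2, 0.37 without E14.5 replicate 3 and 1.04 without P0 replicate 3). These 3p values rest on 30 to 483 reads of miR-99a-3p per library.

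At the Mir100 locus the guide was far below the 5p arms of its partners at both stages. Both of these partner 5p arms have another genomic copy, and part of their reads may come from it. let-7a-5p was 211, 109 and 124 times as abundant as miR-100-5p in the E14.5 pools against 254, 441 and 253 times in the P0 pools. The log2 ratio of miR-100-5p to let-7a-5p differed by −1.10 without overlap (exact permutation p = 0.1). A second row of let-7a-5p, on chromosome 13, held 2365 ± 206 TPM before birth and 6297 ± 879 TPM on the day of birth (SD, n = 3), and with copies summed the difference was −1.25. Against miR-125b-5p it differed by −1.46 (exact permutation p = 0.1), again without overlap. The stages came closest at E14.5 replicate 1, whose miR-100-5p rests on 239 reads.

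The locus-specific 3p partners of miR-100-5p gave no separation. let-7a-2-3p had 2, 26 and 18 reads at E14.5 against 37, 0 and 0 reads at P0, too few for its ratio to be read. miR-125b-1-3p had 268, 243 and 362 TPM before birth against 53.9, 246 and 262 TPM in the P0 pools, so P0 replicate 1 stood alone. The log2 ratio of miR-100-5p to miR-125b-1-3p differed by 0.09 (P0 minus E14.5) over all libraries and by −0.89 without P0 replicate 1 (exact permutation p = 0.9 over all libraries). Of the 12 ratios of members to partners, 7 did not overlap between the stages, beside 31.7% of pairs of tested miRNAs within 100 kb on 1 strand.

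**Figure D4:**
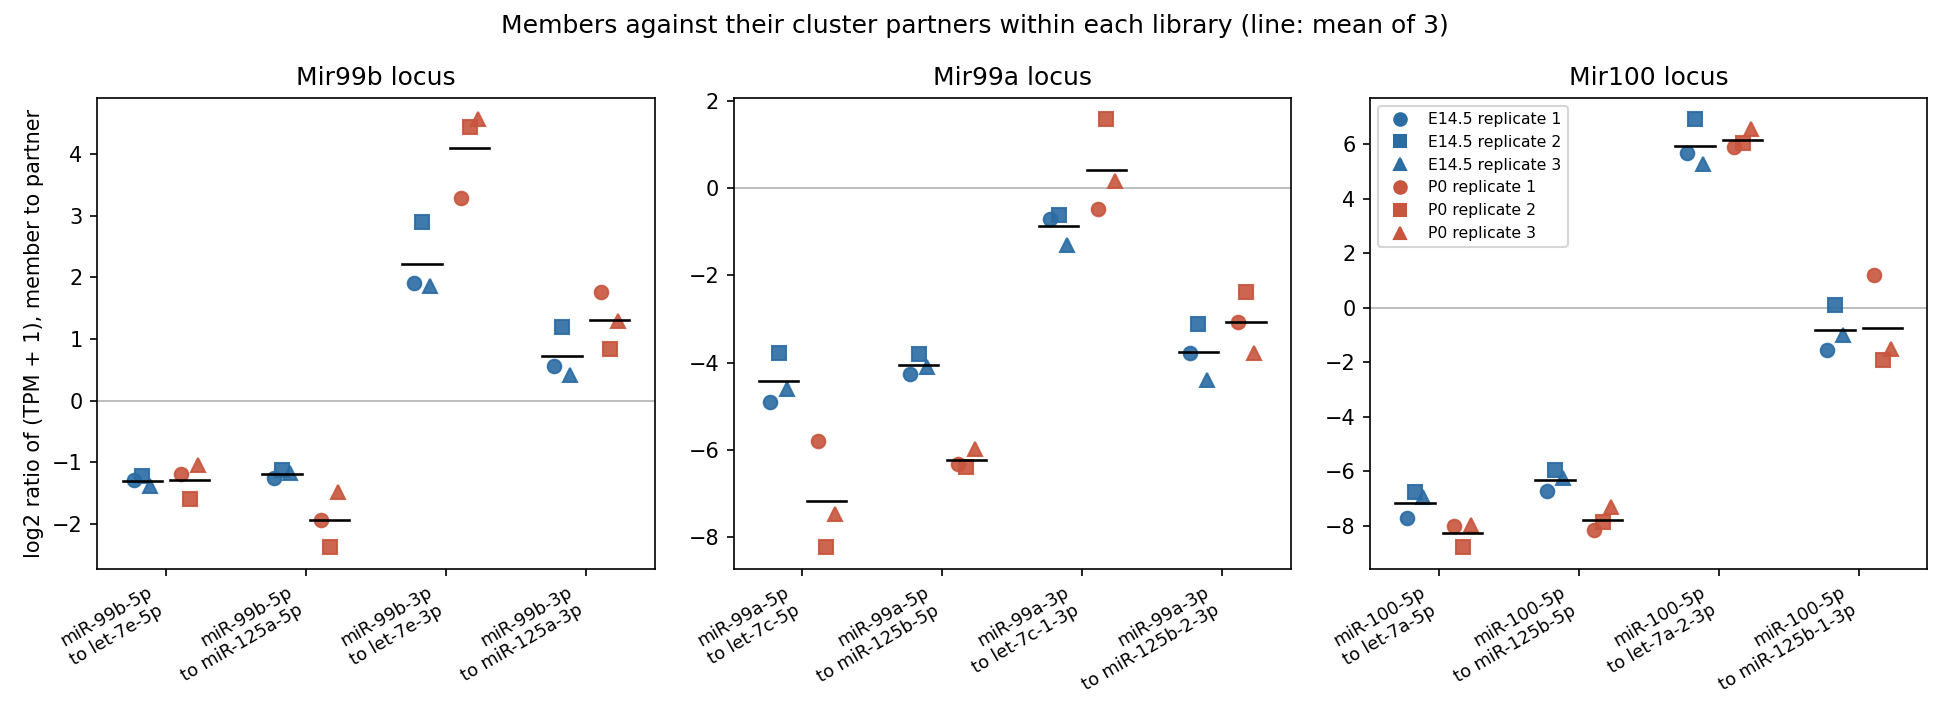
Log2 ratio of (TPM + 1) of members to their cluster partners within each library, 1 panel per locus. Points are libraries and black lines are means of 3. miR-99b-5p to let-7e-5p is level between the stages (−1.30 and −1.28), while miR-99a-5p to let-7c-5p is at −4.43 at E14.5 and −7.17 at P0.

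Base composition differed between the members and moved with the change across the table. Among the 582 tested miRNAs with a RefSeq sequence (86.9%), the Spearman correlation of GC content with log2 fold change reached 0.38 in TPM, or 0.35 with median-of-ratios scaling, across miRNAs of the same 6 libraries. miR-99b-5p and miR-99b-3p have 63.6% GC, and the 45 tested miRNAs within 2.5 points of them had a median change (log2) of −0.59 in TPM, or 0.30 with scaling. Both Mir99b arms lay above those medians on either scale. miR-99a-5p and miR-100-5p have 50% GC each, and the 129 tested miRNAs near that had medians of −1.02 for miR-99a-5p and −1.03 for miR-100-5p in TPM. miR-99a-5p was below and miR-100-5p above them. let-7c-5p and let-7e-5p have 40.9% GC, and the 85 tested miRNAs near that had a median of −1.54 in TPM. The part of base composition in the family's differences was not tested.

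Marker miRNAs of other cell types are given beside the 32.8% of all tested miRNAs that were called lower in TPM and the 5.22% called lower after scaling. The 2 endothelial markers summed to 26608 to 44921 TPM at E14.5 and 5634 to 8158 at P0, and both were called lower in TPM, and 1 of them with median-of-ratios scaling. Of 5 epithelial markers (the miR-200 family, which marks the ureteric tree and tubules), all 5 were called lower in TPM, and 3 with median-of-ratios scaling, with sums of 4122 to 23183 TPM at E14.5 and 500.2 to 1542 at P0. The 8 stromal markers summed to 85412 to 102380 TPM at E14.5 and 33661 to 46576 at P0, with 5 called lower in TPM and 0 after scaling, where their sums overlapped. Sums of the 5 erythroid markers were 305 to 462 TPM and 165 to 336 TPM and overlapped on both scales. Those of the 5 leukocyte markers were 797 to 1540 TPM and 507 to 751 TPM and overlapped after scaling. In each of these 2 lists 1 of 5 markers was called lower in TPM, and 1 leukocyte marker was called higher after scaling. No marker of any list was at 0 in any library. The part of cell composition in the family's values was not tested.

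Among 212 miRNAs averaging 100 TPM or more that are neither members nor partners, the closest to the summed guides over the 6 libraries were miR-127-3p (Pearson r = 0.91), miR-615-3p (0.88) and miR-127-5p (0.88). miR-127-3p had 862, 1811 and 1264 TPM in the E14.5 pools against 1667, 1718 and 1915 TPM in the P0 pools. Like the summed guides it was lowest in E14.5 replicate 1, and its stages overlapped. In TPM none of these miRNAs was called, with log2 fold changes of 0.49, 0.67 and 0.53. After median-of-ratios scaling all were called higher, like the Mir99b arms, at 1.78, 1.95 and 1.80 (limma adjusted p of 0.0401, 0.0401 and 0.0461). Over all tested miRNAs 1.34% were called higher in TPM and 5.67% after scaling. These r values describe likeness over 6 libraries that fall into 2 stages, and all miRNAs share library depth and scaling.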

How the data were processed

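Small RNA of 6 litter pools was sequenced from QIAseq miRNA libraries, per the labels' protocols. The authors deposited 1 table of 1104 rows with a TPM value per sample. Whole reads (within 0.01) were recovered from 100% of TPM values, as TPM times (end minus start) divided by the step that 1 read makes in that library, estimated from its lowest values. The authors' deposited baseMean is a normalised signal. Their log2 fold change, statistic (a score), p-value and adjusted p-value come per the file headers. The submitters' processing notes name featureCounts, DESeq2 1.26.0 and mm10, without roles. The aligner and the use of molecular tags are not given in the sources used here.

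For miRNAs with several genomic copies the copy with most reads stood for them. Stages were compared on log2(TPM + 1) in all 6 samples by limma 3.58.1 under R 4.3.3, with variances moderated along a trend. miRNAs averaging under 1 TPM were left out. The p-values were adjusted by Benjamini-Hochberg over the other 670, and calls were made below 0.05. Adding 1 TPM shrinks the fold changes of scarce miRNAs. Median-of-ratios factors came from 546 miRNAs above 0 in every sample. Ratios used exact permutation tests (scipy 1.17.1). A floor of 3 reads corresponded to 0.0863 to 1.14 TPM. The limma step was also run on simulated reads. These had the same variability for all miRNAs and no library standing apart as P0 replicate 1 does, so they do not vouch for the calls here. Litters are separate samples, per the labels. Members, partners, pairs and lists were chosen with earlier results of these data known. Named miRNAs were the members, their 11 partners and the 3 most alike miRNAs. miR-100-3p was named outside that rule, after its values were seen. Alternatives were other scalings, filters, a pseudocount of 0.1, summed copies, the replicate number as a block, limma-voom, and leaving out each sample. The ratio backgrounds, GC content, read shares, the partner row at the member's own locus, leaving out each sample after median-of-ratios scaling, and the shares called without P0 replicate 1 and by limma-voom were added after seeing the data.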

Additional observations from a re-analysis of the deposited data

How the results depend on the processing

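The number of miRNAs called with limma depended on the processing: 229 in TPM, of which 9 were higher, 73 with median-of-ratios scaling (38 and 35), 63 with upper-quartile scaling (38 and 25), 28 with limma-voom (17 and 11), and 66 to 410 when 1 library was left out (111 without E14.5 replicate 1, 66 without E14.5 replicate 3, 410 without P0 replicate 1, 114 without P0 replicate 2 and 136 without P0 replicate 3).

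After subtracting stage means, samples sharing a number correlated at 0.19, 0.18 and 0.042, so the numbers were not taken to pair the samples. A replicate block gave 247 calls in TPM, and 67 (38 higher, 29 lower) with the block and median-of-ratios scaling. There miR-99b-5p kept its call (1.86, limma adjusted p = 0.0361) and miR-99b-3p did not (1.63, 0.0517).

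miR-99b-5p passed with median-of-ratios scaling (1.86), upper-quartile scaling (2.00) and limma-voom (1.83), and miR-99b-3p with the first 2 (1.63 and 1.76). With 1 library left out after median-of-ratios scaling, miR-99b-5p ranged from 1.62 to 2.19, miR-99b-3p from 1.41 to 1.97 and miR-99a-5p from −0.56 to 0.070. In TPM miR-99a-5p ranged from −1.92 to −1.26 and miR-99a-3p from −0.35 to 0.21. Under median-of-ratios scaling (with or without the block), upper-quartile scaling and limma-voom the sign turned for miR-99a-3p (1.08, 1.19 and 0.93), miR-100-5p (0.45, 0.58 and 0.39), miR-125a-3p (1.04, 1.17 and 1.01), miR-125b-2-3p (0.48, 0.61 and 0.47) and miR-125b-1-3p (0.37, 0.50 and 0.33). These scalings move the median of all miRNAs to −0.17, −0.08 and −0.30.

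Among the ratios, 3 changed sign when 1 library was left out: miR-99b-5p to let-7e-5p (−0.10 to 0.18), miR-100-5p to let-7a-2-3p (−0.13 to 0.69) and miR-100-5p to miR-125b-1-3p (−0.89 to 0.68). In these the cause was not tested. No ratio changed sign with a pseudocount of 0.1, summed copies, the partner row at the shared locus or the block, but miR-100-5p to let-7a-2-3p, a partner with 0 reads in 2 libraries, went from 0.21 to 1.99 with that pseudocount. E14.5 replicates 1 and 3 were the shallowest libraries, with 30 and 46 reads of miR-99a-3p.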
